A study of Mus musculus with 6 samples.

Results

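Transcripts of 10 Hippo pathway genes were followed in RNA sequencing libraries from the mouse mammary carcinoma line 4T1. The genes were taken by name from a fixed list, which was chosen with earlier results of these data known. It holds the coactivators Yap1 and Wwtr1 (which encodes TAZ), the transcription factors Tead1, Tead2, Tead3 and Tead4, the kinases Lats1 and Lats2, and Amotl2 and Ankrd1, which are usual readouts of YAP activity. All 10 were found by their Ensembl identifiers among the 53465 genes of the deposited table, and all 10 were among the 13550 genes with enough counts to be tested. Parental cells (P, variant 4T1) gave 3 libraries and axitinib-resistant cells (AxR, variant 4T1 AxR) gave 3. Axitinib is an inhibitor of VEGF receptor tyrosine kinases. AxR cells came from metastatic lesions that arose after surgery in Balb/c mice given axitinib at 100 mg/kg/day, and they were then kept for over 2 months in 0.5 μM axitinib. Treatment with axitinib is labelled for the AxR samples only, although the text on culture medium lists 0.5 μM of the drug for every one of the 6. The AxR line was taken from lung or lymph node lesions, so effects of axitinib, of growth in the animal, of outgrowth of a clone and of time in culture cannot be told apart.

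In the Hippo pathway, the kinases STK3 and STK4, with the adaptors SAV1 and MOB1, activate LATS1 and LATS2. LATS kinases phosphorylate YAP and TAZ, which are then held in the cytoplasm by 14-3-3 proteins or degraded. Without that phosphorylation, YAP and TAZ enter the nucleus and, through TEAD factors, raise transcription of genes such as Ankrd1, Ccn1 and Ccn2. In mammary carcinoma the pathway is known for its part in growth, stiffness sensing and metastasis. Transcript levels report neither phosphorylation nor the place of YAP in the cell.

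Each library held between 15495260 and 17294525 estimated counts, and Tead3, the member with the fewest, had between 146 and 191. Levels are given as CPM, the usual scaling of counts to a fixed library size, after upper quartile normalization, and as CPM per kilobase of exon where genes are compared with each other. Of the 8 mammary epithelial markers examined, 6 were higher and 2 lower in AxR cells, and their summed level lay between 2132 and 2350 CPM in P libraries and between 3217 and 3395 CPM in AxR libraries. Of 8 fibroblast markers, 7 had too few counts to be tested and Pdgfra was lower, with sums from 22.5 to 24.1 CPM in P and from 10.2 to 11.6 CPM in AxR libraries. Col3a1, Lum and Thy1 had no count in any library. Of 8 leukocyte markers only Cd68 could be tested, and it was higher, with sums from 3.53 to 3.98 CPM and from 8.31 to 8.57 CPM. Cd3e, Tyrobp and Fcer1g were at 0. The 6 endothelial markers summed to at most 0.635 CPM in any library. Of the 6 lung epithelial markers, Foxj1 was higher and the others were too low to be tested. The 6 together summed to between 0.577 and 1.15 CPM in P libraries and between 4.15 and 4.21 CPM in AxR libraries. The part of these differences in the changes of the Hippo genes was not tested.

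Between the lines, transcripts of the coactivators did not pass the test, while 3 of the 4 TEAD genes, Amotl2 and Ankrd1 had lower levels in the resistant line. In the quasi-likelihood test of edgeR with Benjamini-Hochberg adjustment and a threshold of 0.05, 1 member was higher and 5 were lower. Of all genes tested, 63.5% passed in either direction, 32.8% higher and 30.8% lower in AxR cells, so 6 calls among 10 genes are close to the background. The median log2 fold change (AxR over P) of the 10 members was -0.14, where that of all genes tested was 0.0058. For 7 members no library of one line fell within the range of the other, which held for 68.3% of the genes tested. The exact two-sided permutation p of each such gene is 0.1, the smallest that 3 libraries against 3 allow. Ankrd1 was the 1 member lower by at least 1 on the log2 scale, a size that 4.72% of the genes tested reached as lower and 7.99% as higher, 12.7% in all. In bulk RNA, a change in every cell and a change in part of the culture cannot be told apart.

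**Figure D1:**
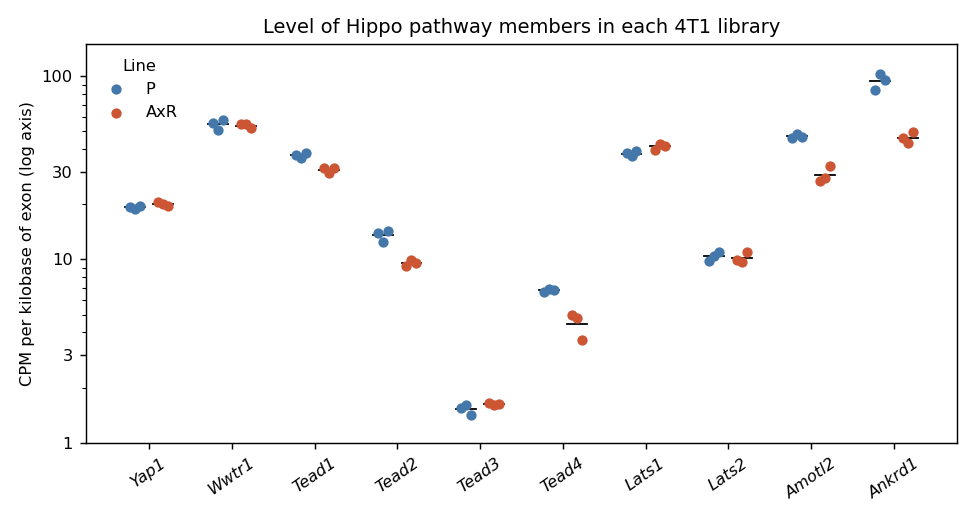
Level of each Hippo pathway member in the 6 libraries, in CPM per kilobase of exon on a log axis, with P libraries in blue, AxR libraries in orange and the mean of each line as a black bar. Ankrd1 had the highest level in P cells (94.2) and Tead3 the lowest in either line (1.52 in P, 1.63 in AxR), and the points of the lines are apart for Tead1, Tead2, Tead4, Amotl2 and Ankrd1 (AxR lower) and, more narrowly, for Lats1 and Tead3 (AxR higher).

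Levels per kilobase of exon spanned more than an order of magnitude among the members. In P cells the mean levels in CPM per kilobase, from high to low, were 94.2 for Ankrd1, 54.8 for Wwtr1, 47.0 for Amotl2, 37.9 for Lats1, 37.0 for Tead1, 19.3 for Yap1, 13.5 for Tead2, 10.4 for Lats2, 6.77 for Tead4 and 1.52 for Tead3. Lats1 and Tead1 overlapped across the P libraries, and the other neighbours in that order did not. In AxR cells Wwtr1 came first with 53.7 CPM per kilobase, followed by Ankrd1 with 46.3, Lats1 with 41.4, Tead1 with 31.0, Amotl2 with 29.0, Yap1 with 20.1, Lats2 with 10.2, Tead2 with 9.55, Tead4 with 4.46 and Tead3 with 1.63. In that order Tead1 overlapped Amotl2, and Lats2 overlapped Tead2. Ankrd1 and Amotl2 stood lower in the order of AxR cells than in that of P cells, and Lats2 and Tead2 changed places.

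Yap1 and Wwtr1 encode paralogous coactivators that carry no DNA-binding domain and reach their targets through TEAD factors. Yap1 (ENSMUSG00000053110.13, chr9:7931999-8004596 of GRCm38, minus strand) had 179.6, 175 and 181.0 CPM in P replicates 1 to 3, and 189.9, 186 and 180.8 CPM in AxR replicates 1 to 3. AxR replicate 3 lay within the range of the P libraries. The log2 fold change of Yap1 was 0.056 (SE 0.047, 95% interval -0.045 to 0.16, edgeR adjusted p = 0.316). Wwtr1 (ENSMUSG00000027803.14, chr3:57455649-57575910, minus strand) had 266, 244 and 274.9 CPM in the P libraries and 260.8, 261.0 and 248 CPM in the AxR libraries. The AxR libraries lay inside the range of the P libraries. Its log2 fold change was -0.028 (SE 0.053, 95% interval -0.14 to 0.085, edgeR adjusted p = 0.662). Both 95% intervals lie within 0.16 of 0.

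The levels of the coactivators stood against different chromosome backgrounds. The tested genes of chromosome 9, where Yap1 lies, had a median log2 fold change of -0.23, and those of chromosome 3, where Wwtr1 lies, of 0.32. The 25 tested genes on each side of them had medians of -0.12 and 0.22. The part of these shifts in the values of the members was not tested. Summed per kilobase, the coactivators had 74.1 ± 3.68 (SD, n = 3) in P cells and 73.8 ± 2.02 (SD, n = 3) in AxR cells, with overlapping libraries. Wwtr1 was the more abundant transcript in all 6 libraries, with a ratio of Yap1 to Wwtr1 between 0.340 and 0.376 in CPM per kilobase.

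TEAD proteins bind DNA and recruit YAP and TAZ, and their mRNA fell for 3 of the 4 genes. Tead1 (ENSMUSG00000055320.17, chr7:112679318-112906807, plus strand), the most abundant of the family, had 503.8, 484 and 516 CPM in the P libraries and 427.6, 403.7 and 428.9 CPM in the AxR libraries. No P library was as low as any AxR library. The log2 fold change was -0.26 (SE 0.047, edgeR adjusted p = 0.000227). Tead2 (ENSMUSG00000030796.17, chr7:45215753-45233644, plus strand), known for expression in early embryos and neural precursors, had 66.6, 59.5 and 68.5 CPM in P libraries and 43.9, 47.4 and 45.9 CPM in AxR libraries. Again the lines did not overlap, and the log2 fold change was -0.50 (SE 0.066, edgeR adjusted p = 8.55e-06). Both genes lie on chromosome 7, whose 0.18 median log2 fold change had the opposite sign.

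Tead4 (ENSMUSG00000030353.15, chr6:128224288-128300823, minus strand), known for its need in trophectoderm, had 23.8, 24.7 and 24.6 CPM in P libraries and 17.8, 17.2 and 13.1 CPM in AxR libraries. AxR replicate 3 was the lowest, and the other AxR libraries were also below all P libraries. Its log2 fold change was -0.61 (SE 0.10, edgeR adjusted p = 8.12e-05). Tead3 (ENSMUSG00000002249.20, chr17:28331671-28350817, minus strand), the family member best known from placenta, had 10.4, 10.7 and 9.52 CPM in P libraries and 11.1, 10.8 and 10.9 CPM in AxR libraries. The lines were narrowly apart, but the log2 fold change of 0.097 (95% interval -0.12 to 0.31, edgeR adjusted p = 0.420) did not pass. The medians of chromosomes 6 and 17 were 0.0081 and 0.18.

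Summed over the family, the TEAD level was 59.2, 56.6 and 60.6 CPM per kilobase in P libraries and 47.3, 46.0 and 46.5 CPM per kilobase in AxR libraries (58.8 ± 2.04 and 46.6 ± 0.644, SD, n = 3 each). All AxR libraries were below all P libraries, with an exact two-sided permutation p of 0.1. Tead1 made up 62.9 ± 0.201% (SD, n = 3) of that sum in P cells and 66.4 ± 1.70% (SD, n = 3) in AxR cells. The share of Tead2 was 23.0 ± 0.923% and 20.5 ± 1.07%, that of Tead4 was 11.5 ± 0.526% and 9.57 ± 1.48%, and that of Tead3 was 2.59 ± 0.244% and 3.50 ± 0.0129% (SD, n = 3 each). For each of the 4 shares the lines did not overlap, but the shares are parts of the same sum and not separate results. The Tead1 share rose although the Tead1 level fell, and the Tead3 share rose although Tead3 did not pass. The Tead4 share of AxR minus P was -1.96 percentage points, and -1.11 without AxR replicate 3. The summed coactivators stood at 1.26 ± 0.0198 times the summed TEAD level in P cells and at 1.58 ± 0.0437 times in AxR cells (SD, n = 3 each), also without overlap.

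**Figure D2:**
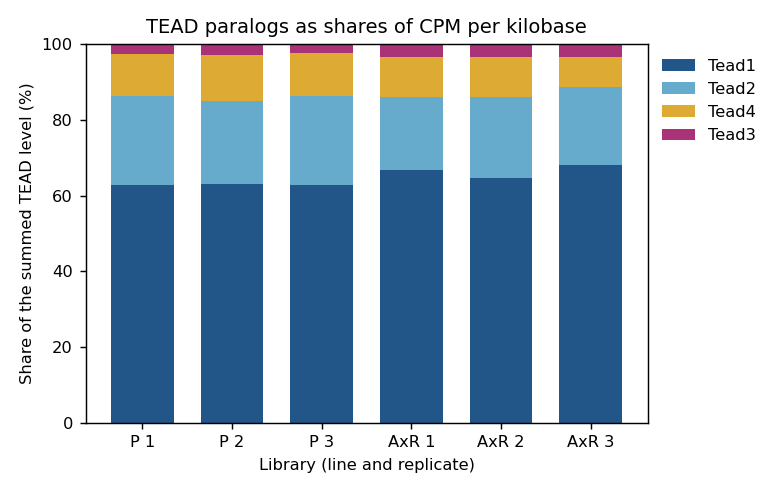
Share of each TEAD gene in the summed TEAD level of each library, in percent of CPM per kilobase, with P replicates 1 to 3 on the left and AxR replicates 1 to 3 on the right. Tead1 took between 62.7% and 63.1% of the sum in P libraries and between 64.6% and 68.0% in AxR libraries, and Tead4 was smallest in AxR replicate 3 (7.86%).

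LATS1 and LATS2 are the kinases that phosphorylate YAP and TAZ, and Lats2 is also transcribed in response to YAP. Lats1 (ENSMUSG00000040021.13, chr10:7681214-7716460, plus strand) had 277, 268 and 284 CPM in P libraries and 290.1, 311.8 and 305 CPM in AxR libraries. Every AxR library was above every P library, and the log2 fold change was 0.13 (SE 0.048, edgeR adjusted p = 0.0275). This was the 1 member called higher, and the call was lost with DESeq2 (adjusted p = 0.0572), without P replicate 1 (edgeR adjusted p = 0.0627), without P replicate 2 (0.0739) and without AxR replicate 2 (0.105). Over the 13 alternatives its adjusted p lay between 0.0112 and 0.105, and 6 of them passed. On chromosome 10 the median log2 fold change over tested genes was 0.25, above that of Lats1. Lats2 (ENSMUSG00000021959.16, chr14:57689662-57758388, minus strand) had 68.5, 73.2 and 76.3 CPM in P libraries and 68.8, 67.7 and 76.9 CPM in AxR libraries. The lines overlapped, and its log2 fold change was -0.030 (95% interval -0.17 to 0.11, edgeR adjusted p = 0.705). Lats1 stood at 3.64 ± 0.197 times the level of Lats2 per kilobase in P cells and at 4.07 ± 0.307 times in AxR cells (SD, n = 3 each), with overlap.

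The largest changes among the members were in the readout genes. Ankrd1 (ENSMUSG00000024803.8, chr19:36111961-36120099, minus strand) encodes an ankyrin repeat protein of muscle and of wounded or stretched cells. It had 243, 297 and 275 CPM in P libraries and 132.7, 125 and 143 CPM in AxR libraries. The highest AxR library was far below the lowest P library, and the log2 fold change was -1.02 (SE 0.073, edgeR adjusted p = 4.78e-08), a level 2.03-fold lower. Chromosome 19 had a median log2 fold change of 0.0014. Amotl2 (ENSMUSG00000032531.15, chr9:102716672-102733418, plus strand) encodes an angiomotin family protein of cell junctions that binds YAP and restrains it. It had 289, 305 and 293 CPM in P libraries and 168, 176 and 204 CPM in AxR libraries. All AxR libraries were below all P libraries, with AxR replicate 3 the highest of them, and the log2 fold change was -0.69 (SE 0.065, edgeR adjusted p = 3.30e-07). On chromosome 9 the median over tested genes was -0.23, and over the 25 tested genes on each side of Amotl2 it was -0.44.

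**Figure D3:**
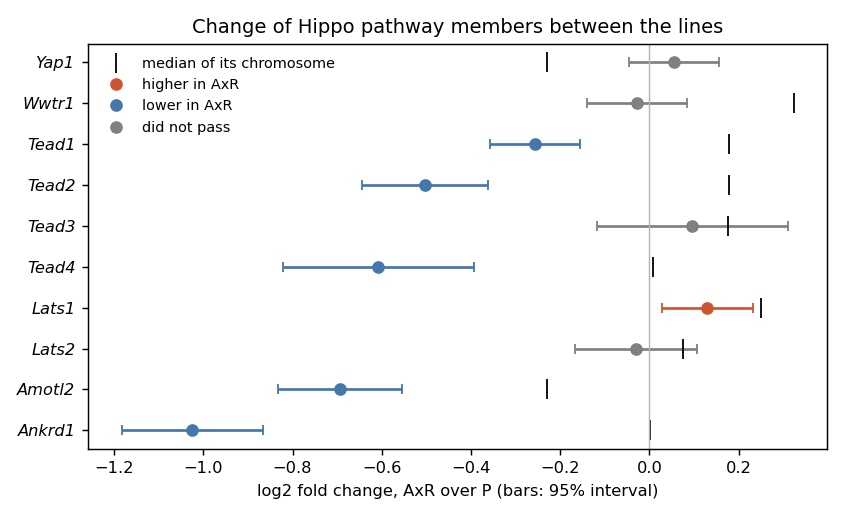
Log2 fold change (AxR over P) of the 10 members with 95% intervals from edgeR, in orange for the member called higher, in blue for those called lower and in grey for those that did not pass, and the median log2 fold change of the tested genes on the same chromosome as a black tick. Ankrd1 (-1.02), Amotl2 (-0.69), Tead4 (-0.61), Tead2 (-0.50) and Tead1 (-0.26) lie left of both 0 and the tick of their chromosome.

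For most members, reads were not shared with other genes in the authors' quantification. The estimated counts of 9 members were whole numbers in every library, and those of Yap1 were not whole in 4 of the 6. Gm20416, on the strand opposite to Yap1 with 116 bases of shared exon, had at most 6 counts. Gm49361 shares 2955 exonic bases with Lats2 on the same strand and had no count in any library. Cd37, opposite to Tead2 with 13 shared bases, had at most 6. Among the other pathway genes described below, the counts of Ccn2, Sav1, Stk38l, Rassf1, Frmd6, Fat1, Ywhah, Ywhaq, Ywhaz and Csnk1e were not whole in any of the 6 libraries. Those of Gadd45a were not whole in 5 libraries, those of Ptpn14 in 3 and those of Sfn in 2. For all of these genes, reads that also match another gene were split by RSEM, so their values are less certain.

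The promoters of the readout genes are shown because Ankrd1 and Amotl2 had the largest changes among the members and Ccn1, a usual readout beside them, went the other way. Each line gives the 250 bases before the RefSeq start site (GRCm38.p6) of Ankrd1, Amotl2 and Ccn1, read 5′ to 3′ on the strand of the gene. Capitals mark GGAATG, the core letters that TEAD factors recognize, or CATTCC, the same letters on the other strand. The windows are chr19:36119845-36120094 (minus strand) for Ankrd1, chr9:102717554-102717803 (plus strand) for Amotl2 and chr3:145649986-145650235 (minus strand) for Ccn1. Those of Ankrd1 and Amotl2 lie inside the gene spans given above (to 36120099 for Ankrd1, from 102716672 for Amotl2). They precede a RefSeq start site and not the 5′ end of those spans.
Ankrd1: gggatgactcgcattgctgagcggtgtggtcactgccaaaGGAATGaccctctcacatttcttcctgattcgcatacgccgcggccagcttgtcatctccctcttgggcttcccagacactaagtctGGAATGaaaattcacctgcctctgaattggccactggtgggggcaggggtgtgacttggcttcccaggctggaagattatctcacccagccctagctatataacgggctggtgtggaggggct
Amotl2: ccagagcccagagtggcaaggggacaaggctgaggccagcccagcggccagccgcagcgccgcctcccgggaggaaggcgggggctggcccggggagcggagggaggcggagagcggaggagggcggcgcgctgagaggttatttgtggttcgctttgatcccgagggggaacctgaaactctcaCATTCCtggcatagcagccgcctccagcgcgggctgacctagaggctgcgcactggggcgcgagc
Ccn1: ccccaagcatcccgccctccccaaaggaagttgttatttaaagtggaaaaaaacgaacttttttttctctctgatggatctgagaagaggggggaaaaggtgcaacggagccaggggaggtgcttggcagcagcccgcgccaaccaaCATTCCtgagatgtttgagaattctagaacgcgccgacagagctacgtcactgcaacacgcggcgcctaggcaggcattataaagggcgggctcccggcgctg

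Ankrd1, which fell, has the motif at 210 and 123 bases before the start site. Amotl2, which also fell, has it at 65 bases, and Ccn1, which rose, at 103 bases. Windows were given for 8 of the 10 members, without Tead1 and Tead4, and 5 of the 8 held the motif in at least 1 window: Yap1, Wwtr1, Tead3, Amotl2 and Ankrd1. Of the 27025 genes with a window, 14.4% held it in at least 1. By window, 7 of the 12 windows of the members and 12.6% of all 32851 windows of this length held it on either strand. The windows of Wwtr1 overlap and hold the same site, at 136 and 170 bases before their start sites, so it is counted more than once. Tead2, Lats1 and Lats2 had no match, which says only that these letters are not in these windows. The windows of Lats2 lie inside its gene span, so the bases before the 5′ end of that span were not searched. A match is a run of letters and not a measured binding site, and the motif stood in windows of genes that rose, of genes that fell and of genes that did not pass.

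A wider list of 19 YAP and TEAD targets, without the members, did not move one way. Of these, 15 were tested, with 5 higher and 8 lower, where 63.5% of all genes passed, and the median log2 fold change was -0.20. The median is the same with Fjx1, described below, at its bound. F3, which encodes tissue factor, rose most. It had 6.99, 5.43 and 6.52 CPM in P libraries and 20.5, 23.3 and 24.8 CPM in AxR libraries, a log2 fold change of 1.86 (SE 0.11, edgeR adjusted p = 1.83e-09). Ccn1, a secreted matricellular protein and an early target of YAP, had 136, 164 and 149 CPM in P libraries and 341, 307 and 354 CPM in AxR libraries. Its lowest AxR library was well above its highest P library, with a log2 fold change of 1.16 (SE 0.070, edgeR adjusted p = 6.19e-09). Ccn2, its close relative, rose from 147 ± 9.34 to 205 ± 12.2 CPM (means ± SD, n = 3 per line), with a log2 fold change of 0.48 (edgeR adjusted p = 4.36e-06). Asap1, an ARF GTPase-activating protein of focal adhesions, rose from 325 ± 2.58 to 670.8 ± 20.6 CPM (means ± SD, n = 3 per line), with a log2 fold change of 1.05. Arhgef17 was the other target to rise.

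Ccn1 and Ankrd1 are both taken as readouts of YAP, and they moved apart. Per kilobase, the ratio of Ccn1 to Ankrd1 was 0.802, 0.787 and 0.775 in P libraries and 3.67, 3.52 and 3.53 in AxR libraries. The ratio varied little within a line and the lines did not overlap. For Ccn2 the ratio to Ankrd1 was 0.547 ± 0.0223 in P cells and 1.56 ± 0.145 in AxR cells (SD, n = 3 each). F3 and Ccn1 lie on chromosome 3, with a median log2 fold change of 0.32, and Ccn2 on chromosome 10, with a median of 0.25.

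Among the lower targets, Fjx1, a relative of Drosophila four-jointed, had between 17 and 28 counts in P libraries and 0, 2 and 0 counts in AxR libraries. Against a floor of 3 counts per AxR library its level was at least 7.59-fold lower in AxR cells. Nuak2, a kinase related to AMPK, fell by 0.57 on the log2 scale (edgeR adjusted p = 8.42e-06), from 36.4 ± 1.22 to 24.6 ± 1.83 CPM (SD, n = 3 each). Nt5e, the ectoenzyme CD73 that makes adenosine, fell from 563 ± 3.10 to 389 ± 7.10 CPM (means ± SD, n = 3 per line), with a log2 fold change of -0.53 (edgeR adjusted p = 5.31e-08). The other lower targets were Axl, Ptpn14, Myof, Dock5 and Crim1, and Gadd45a and Tgfb2 did not pass, with log2 fold changes of -0.13 and -0.086. Igfbp3, Foxf2 and Rbms3 had at most 3 counts in any library, and Ccdc80 had at most 13. Windows were given for 12 of the 19 targets, and 4 of them, Ptpn14, Ccn1, Axl and Crim1, held the motif, beside 14.4% of all genes with a window. No window was given for Ccn2, Asap1, Arhgef17, Fjx1, Nuak2, Dock5 or Ccdc80, so these were not searched.

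**Figure D4:**
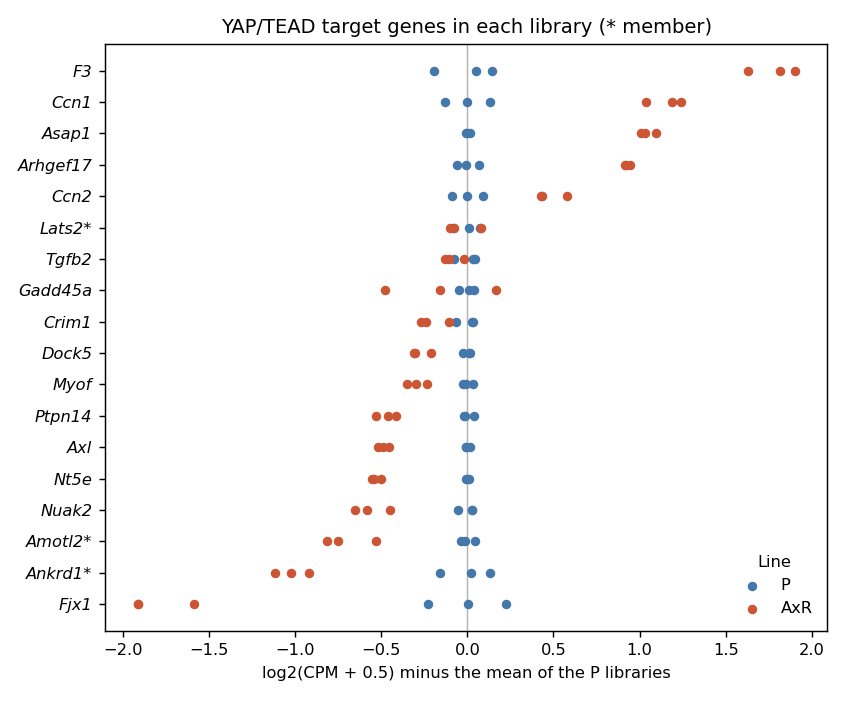
YAP and TEAD target genes in each library, as log2(CPM + 0.5) minus the mean of the 3 P libraries, with P libraries in blue, AxR libraries in orange and members marked by an asterisk. F3, Ccn1, Asap1, Arhgef17 and Ccn2 lie to the right of their P libraries, Ankrd1, Amotl2 and 8 other targets to the left, and for Lats2, Tgfb2 and Gadd45a the lines overlap.

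Upstream of LATS, the kinases and adaptors changed in both directions. Of 17 genes, all tested, 5 were higher and 8 were lower, beside 32.8% and 30.8% of all genes tested, with a median log2 fold change of -0.14. Stk3 and Stk4, which encode the paralogous kinases MST2 and MST1 at the head of the cassette, moved in opposite directions. Stk3 had 77.3, 69.7 and 79.7 CPM in P libraries and 102.8, 99.4 and 96.4 CPM in AxR libraries, a log2 fold change of 0.40 (SE 0.060, edgeR adjusted p = 3.17e-05). Stk4 had 105, 104 and 106 CPM in P libraries and 68.7, 62.9 and 60.2 CPM in AxR libraries, a log2 fold change of -0.72 (SE 0.058, edgeR adjusted p = 4.50e-08). Neither gene overlapped between the lines, and the ratio of Stk3 to Stk4 per kilobase was 0.689 ± 0.0423 in P cells and 1.49 ± 0.0530 in AxR cells (SD, n = 3 each). In P cells Stk4 was the more abundant of the pair in each library, and in AxR cells Stk3 was. Their adaptor Sav1 fell by 0.35 on the log2 scale (edgeR adjusted p = 0.000155).

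Tnik, a kinase of the MAP4K group known from WNT signaling, had the largest change of this list. It had 28.9, 25.7 and 26.7 CPM in P libraries and 4.19, 5.29 and 4.66 CPM in AxR libraries, a log2 fold change of -2.52 (SE 0.10, edgeR adjusted p = 2.99e-11) on a chromosome with a median of 0.32. Taok3, of the TAO kinases that can activate MST kinases, fell by 0.72 on the log2 scale (edgeR adjusted p = 1.29e-05). Map4k1, known from blood cells, rose from 0.485 ± 0.0931 to 1.31 ± 0.0928 CPM (SD, n = 3 each), on at most 23 counts in a library. Stk38l, an NDR kinase related to LATS, and Map4k2 rose by 0.84 and 0.51 on the log2 scale (edgeR adjusted p = 3.62e-06 and 0.000159).

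Of 13 upstream regulators of the kinases and of YAP, 10 were tested, 2 were higher and 5 were lower, with a median log2 fold change of -0.16. These 7 calls among 10 genes are near the background of 63.5%. Nf2, which encodes the tumor suppressor merlin and recruits LATS to the membrane, had 121, 117 and 116 CPM in P libraries and 198, 193 and 179 CPM in AxR libraries. Every AxR library was above every P library, with a log2 fold change of 0.69 (SE 0.053, edgeR adjusted p = 2.70e-08). Ajuba, a LIM protein that binds LATS, also rose, by 0.26 on the log2 scale (edgeR adjusted p = 0.00111). Rassf1, a scaffold of the MST kinases, fell most. It had 127, 152 and 130.1 CPM in P libraries and 48.3, 53.4 and 76.9 CPM in AxR libraries, a log2 fold change of -1.20 (SE 0.20, edgeR adjusted p = 0.00445), with AxR replicate 3 the highest of its line. Amotl1, a further angiomotin gene, fell from 770.6 ± 3.98 to 567.5 ± 5.61 CPM (means ± SD, n = 3 per line), with a log2 fold change of -0.44, and it also lies on chromosome 9. Amot, the third angiomotin gene, did not pass (log2 fold change 0.035, edgeR adjusted p = 0.754). Frmd6, a FERM domain protein, fell by 0.36 on the log2 scale, Wwc2 and Fat1 were also lower, and Fat4, Dchs1 and Wtip had at most 1 count in any library.

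Of 10 genes for retention or degradation of YAP, all tested, 1 was higher and 5 were lower, with a median log2 fold change of -0.14. These 6 calls among 10 genes are close to the 63.5% of all genes tested. Among the 14-3-3 genes, Ywhah and Ywhag fell by 0.71 and 0.67 on the log2 scale (edgeR adjusted p = 1.34e-08 and 8.06e-09). Ywhab and Sfn were also lower, and Ywhae, Ywhaq and Ywhaz did not pass, with log2 fold changes of -0.053, -0.022 and 0.017. Csnk1e, a casein kinase that marks LATS-phosphorylated YAP for degradation, fell from 105 ± 3.84 to 60.7 ± 2.07 CPM (means ± SD, n = 3 per line), with a log2 fold change of -0.80 (edgeR adjusted p = 8.20e-09), and its relative Csnk1d did not pass (log2 fold change 0.099, edgeR adjusted p = 0.0839). Btrc, which encodes the ubiquitin ligase subunit for phosphorylated YAP, rose by 0.36 on the log2 scale (edgeR adjusted p = 0.00189).

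Vestigial-like proteins compete with YAP and TAZ for TEAD factors or act beside them. Vgll3 had 18.8, 17.6 and 19.1 CPM in P libraries and 12.1, 9.95 and 10.6 CPM in AxR libraries, a log2 fold change of -0.77 (SE 0.095, edgeR adjusted p = 4.55e-06). Vgll4, which restrains TEAD activity, did not pass (log2 fold change -0.096, 95% interval -0.24 to 0.051, edgeR adjusted p = 0.238), and the lines overlapped. Vgll1 had no count, and Vgll2 at most 1 in any library.

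**Figure D5:**
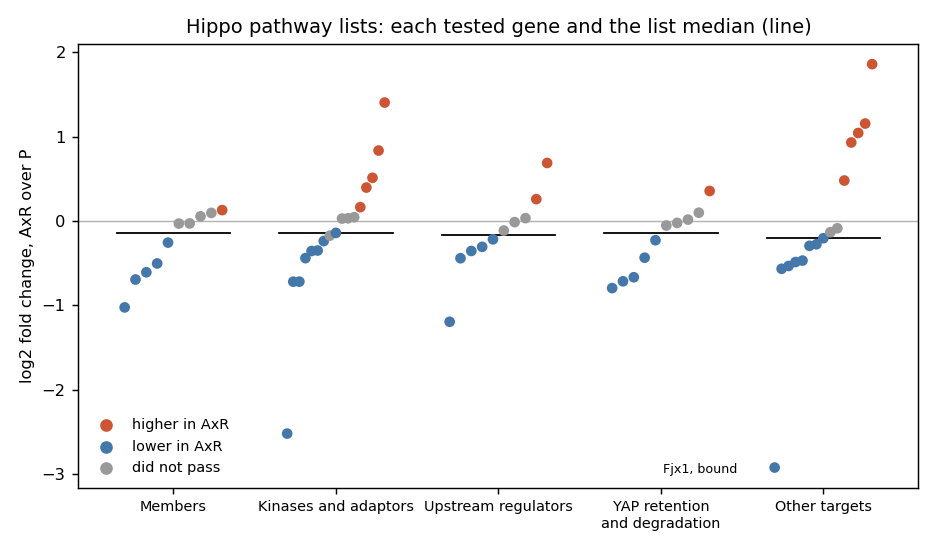
Log2 fold change (AxR over P) of each tested gene in the members and 4 further lists of the Hippo pathway, in orange for genes called higher, in blue for genes called lower and in grey for genes that did not pass, with the list median as a black line. Fjx1 is drawn at its bound of -2.92, and the medians lie between -0.20 and -0.14.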

How the data were processed

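Poly(A) RNA of 3 P and 3 AxR libraries was sequenced from stranded TruSeq libraries. The authors aligned reads to GRCm38 (GENCODE M16) with STAR 2.6.0a and deposited estimated counts per gene from RSEM 1.3.1, before filtering and normalization, which need not be whole. The labels do not say whether replicates were separate cultures, so p-values measure the spread between these libraries, which may be technical.

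The rounded values passed through filterByExpr, which left 13550 genes, then upper quartile scaling and a robust quasi-likelihood fit in edgeR 4.0.16 (R 4.3.3) with line as the only term. Benjamini-Hochberg adjustment ran over all genes left, with a threshold of 0.05. Replicates differed by more than sampling noise (chi-square over its degrees of freedom, 5.10 to 19.7). The value of 19.7 was for AxR replicates 1 and 3, and the other pairs reached at most 8.48. Symbols, positions and union exon lengths came from GENCODE M21 of the same build, which held 53274 of 53465 identifiers, and promoters from RefSeq (GRCm38.p6). The floor of 3 counts covers counting error only. The alternatives were TMM, library size only, DESeq2 1.42.0, limma-voom (limma 3.58.1), 2 other low-count filters, the replicate block, each library left out and a fold change limit. Tests were tried on simulated counts with far fewer changed genes and the same dispersion for every gene. Error rates in these data were not measured that way. The members, lists and tests were chosen with earlier results of these data known. Genes named were the members, Stk3, Stk4, Sav1, Nf2, Vgll4, Ccn1, Ccn2 and up to 3 highest and 3 lowest called genes per list. Other genes were named after their values were seen, to complete a count.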

Additional observations from a re-analysis of the deposited data

How the results depend on the processing

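The 5 members called lower kept that call in each alternative normalization, filter and tool, and without any 1 library. The count of members called higher, 1 (Lats1) as reported, was 0 when scaled by library size only (adjusted p = 0.0801), with DESeq2 (0.0572) and with no low-count filter, and between 0 and 1 with each library left out. At an unadjusted p under 0.05 the count was 0 when scaled by library size only, and 1 with DESeq2 and with no low-count filter. With a log2 fold change of at least 1 also required, 0 members were higher and 1 lower, and the counts over all genes were 1083 and 640. The same limit left 1 and 1 in the kinase list, 0 and 1 among upstream regulators, 0 and 0 among retention and degradation genes, and 3 and 1 among other targets (higher and lower, edgeR). With each library left out, the median log2 fold change lay between -0.18 and -0.11 for the members and between -0.12 and -0.11 for the kinase list, and 1 to 2 retention and degradation genes were higher (2 without P replicate 2). With no low-count filter the upstream median was -0.22. Neither Wwtr1 nor Lats2 passed the test, and their sign turned. With each library left out, Wwtr1 lay between -0.075 and 0.011 (above 0 without P replicate 3), and Lats2 between -0.088 and 0.0089 (above 0 without P replicate 3 and, at 0.0082, without AxR replicate 2). In CPM without division by exon length, the share of AxR minus P was 1.78 percentage points for Tead1, -1.49 for Tead2, 0.517 for Tead3 and -0.799 for Tead4. Map4k1 was not tested with at least 10 counts required in every library. The cause was not tested in these cases.

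Same-numbered replicates did not deviate together (correlations of -0.021, -0.0061 and -0.022), and the main fit held no replicate term. Such values cannot show whether same-numbered libraries were handled together. With a replicate block, 0 members were higher (1 at an unadjusted p under 0.05 in edgeR) and 5 were lower, and Lats1 had an adjusted p of 0.0611. Counts of 3 or fewer in a library cannot show a change, which holds for Igfbp3, Foxf2 and Rbms3 among the targets.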
